A study of Mus musculus with 6 samples.

Results

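The genes described here are those of glucocorticoid signaling in inguinal white adipose tissue (iWAT): the receptors *Nr3c1* and *Nr3c2*, the activation enzyme *Hsd11b1*, and the receptor-responsive genes *Fkbp5*, *Tsc22d3*, *Per1*, *Zbtb16*, *Sgk1* and *Ddit4*. They were chosen by symbol, and these 9 genes were all found among the 36144 gene symbols of the deposited table. Bulk mRNA was sequenced from whole iWAT of random-fed female C57BL6/J mice aged 10 weeks. Both depots of each mouse were taken, with the lymph nodes taken out. Cebpa_ASKO mice carried floxed *Cebpa* alleles with an AdipoQ-Cre transgene (3 libraries), and their Cebpa_fl/fl littermates carried the same floxed alleles without Cre (3 libraries). The *Adipoq* promoter drives Cre in adipocytes late in their differentiation, so cells of other types in the depot keep *Cebpa*, the gene of the transcription factor C/EBPα.

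Glucocorticoids are steroid hormones of the adrenal gland that enter cells and bind the glucocorticoid receptor, a protein held ready in the cytoplasm by a chaperone complex. The bound receptor moves to the nucleus and activates or represses genes, and it acts in fat both on the making of adipocytes and on lipid turnover. Adipocytes also raise their own supply, because the enzyme 11β-hydroxysteroid dehydrogenase type 1 turns the inactive 11-keto steroid back into active corticosterone. No hormone level was measured in these samples, so the values below are levels of mRNA.

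In Cebpa_ASKO iWAT *Hsd11b1* was lower, at 55.6% of the control level, and it was the 1 member of 9 that passed the test. *Nr3c1* stood at 75.7% of the control level and did not pass. The receptor-responsive genes did not share a direction: *Fkbp5* and *Zbtb16* had lower means in Cebpa_ASKO, *Tsc22d3*, *Per1* and *Sgk1* had higher means, and *Ddit4* was level, with no call among these 6. Counts summed per gene were compared by the quasi-likelihood test of edgeR. The p-values were adjusted over 16069 genes, and those below 0.05 after adjustment are called. By this rule 3.84% of all genes tested were called lower and 1.39% were called higher, against 1 and 0 of the 9 members. At an unadjusted p below 0.05, 0 members were higher and 3 were lower (*Hsd11b1*, *Nr3c1* and *Zbtb16*), while 9.44% of all genes tested were higher and 10.4% lower at that level. Those 3 were the members called lower by DESeq2, which called 6.45% of its genes lower and 3.79% higher, and it called 0 members higher. The median log2 fold change of the 9 members was -0.021, beside 0.025 over all genes tested. The genotypes did not overlap in 3 of the 9 members, while 26.1% of all genes tested had no overlap.

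The libraries held 33141769 to 49477671 estimated counts, with the 3 Cebpa_ASKO libraries all below the 3 controls, and each member had between 229 and 8296 counts in every library. Levels are given as TMM-scaled CPM (counts set relative to library size) for comparisons of a gene between libraries, and as TPM, which also divides by transcript length, for comparisons between genes. *Cebpa* itself was at 448, 465 and 498 CPM in Cebpa_fl/fl and at 37.7, 45.8 and 37.2 CPM in Cebpa_ASKO. *Adipoq*, the adipocyte hormone that marks the tissue, had a mean of 2602 CPM in controls and 342 CPM in Cebpa_ASKO. Summed over 12 adipocyte markers, the level was 34198 to 41964 CPM in controls and 10406 to 12801 CPM in Cebpa_ASKO, with 7 of 12 called lower. The sum over 12 skeletal muscle markers was 598 to 818 CPM in controls and 3054, 5776 and 1999 CPM in Cebpa_ASKO 1, 2 and 3, with 10 of 12 called higher. Lymphocyte markers, summed, were at 308 CPM in Cebpa_fl/fl 1 and at 9.76 to 23.0 CPM in the other libraries. In whole tissue, fewer cells of a type and less RNA per cell cannot be told apart.

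**Figure D1:**
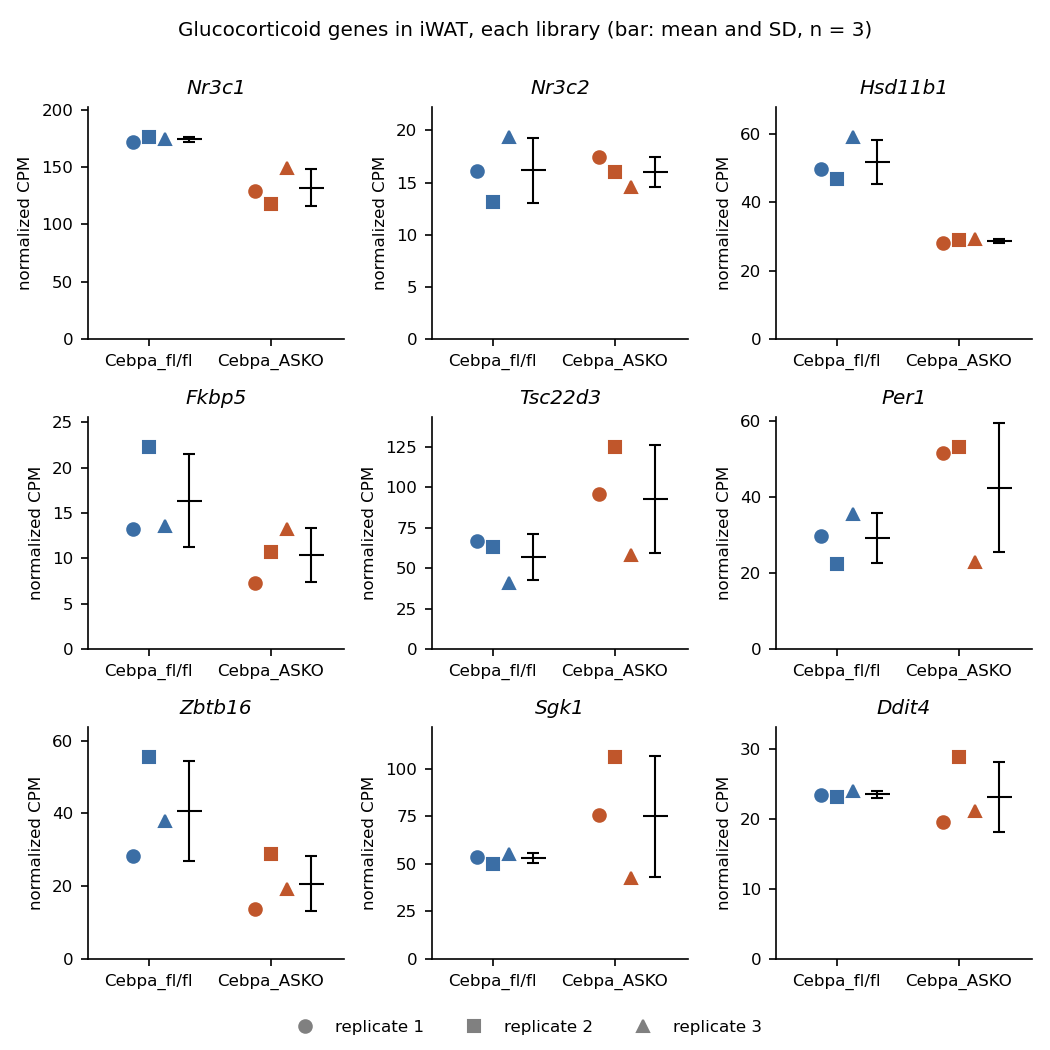
Each panel plots 1 gene's normalized CPM in the 3 Cebpa_fl/fl libraries (blue) and the 3 Cebpa_ASKO libraries (orange), with the replicate number as the symbol and the mean ± SD as a black bar. *Hsd11b1* is separated by a wide gap (46.7 to 59.1 against 28.2 to 29.4 CPM), whereas in *Tsc22d3*, *Per1* and *Sgk1* the first and second Cebpa_ASKO libraries lie above all controls and the third among or below them.

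Per length, the order of the genes differed between the genotypes. In Cebpa_fl/fl the mean TPM ran from *Hsd11b1* (50.1) through *Tsc22d3* (38.6), *Nr3c1* (36.6), *Sgk1* (30.6), *Ddit4* (17.7), *Zbtb16* (10.6), *Per1* (8.08) and *Fkbp5* (6.54) to *Nr3c2* (3.64). The ranges of neighbors overlapped for *Tsc22d3* and *Nr3c1*, for *Zbtb16* and *Per1*, and for *Per1* and *Fkbp5*. In Cebpa_ASKO the mean TPM was highest for *Tsc22d3* (64.6), followed by *Sgk1* (49.4), *Hsd11b1* (29.5), *Nr3c1* (29.1), *Ddit4* (18.3), *Per1* (12.2), *Zbtb16* (5.80), *Fkbp5* (4.31) and *Nr3c2* (3.75). There, *Nr3c1* and *Ddit4* were the only neighbors whose ranges did not overlap. The activation enzyme was thus the most abundant of these mRNAs in control iWAT and came after *Tsc22d3* and *Sgk1* by its mean in Cebpa_ASKO.

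*Nr3c1* (chromosome 18, 39410545 to 39519421, minus strand, GRCm38) encodes the glucocorticoid receptor. Its level was 172, 176 and 175 CPM in the controls and 129, 117 and 149 CPM in Cebpa_ASKO. The controls lay within a few CPM of each other and every Cebpa_ASKO library was below them. This came to a log2 fold change of -0.40 (SE 0.109, 95% interval -0.66 to -0.14), with an adjusted p of 0.0978 by edgeR and 0.0182 by DESeq2, and the exact two-sided permutation p was 0.1, the smallest that 3 against 3 libraries allow. On the TPM scale the genotypes overlapped, at 33.6 to 38.6 in controls and 25.7 to 34.5 in Cebpa_ASKO. *Nr3c1-204* carried most of the gene's TPM, 71.3% on average in controls and 79.2% in Cebpa_ASKO, with mean TPM of 26.2 and 22.9. *Nr3c1-203*, which starts upstream of it, had a mean TPM of 6.42 in controls and 3.09 in Cebpa_ASKO, with single libraries between 0.326 and 8.62.

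*Nr3c2* (chromosome 8, 76899442 to 77245012, plus strand) encodes the mineralocorticoid receptor, which also binds glucocorticoids with high affinity. By mean TPM it was the least abundant member in both genotypes. In CPM it was at 16.1, 13.1 and 19.3 CPM in controls and 17.5, 16.1 and 14.6 CPM in Cebpa_ASKO. The Cebpa_ASKO libraries fell inside the control range. Its log2 fold change was -0.015 (95% interval -0.40 to 0.37, edgeR adjusted p = 0.973), and its sign turned with the scaling.

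*Hsd11b1* (chromosome 1, 193221634 to 193264075, minus strand) encodes the activation enzyme itself. It was measured at 49.8, 46.7 and 59.1 CPM in controls and at 28.2, 28.9 and 29.4 CPM in Cebpa_ASKO. The Cebpa_ASKO libraries were nearly alike and all lay below the lowest control. The log2 fold change was -0.85 (SE 0.105, 95% interval -1.10 to -0.60) with an edgeR adjusted p of 0.00677, and the exact permutation p was 0.1. Without Cebpa_ASKO 1 the log2 fold change was -0.83 with an adjusted p of 0.0504, and limma on TPM without a filter gave -0.75 with an adjusted p of 0.0755. *Hsd11b1* was called lower in 14 of 16 alternatives. Markers of adipocytes, the cells in which Cre was active, moved in the same direction in the same libraries, and their part in this result was not tested.

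Of the 3 transcripts of *Hsd11b1* with a mean of at least 0.5 TPM, *Hsd11b1-205* and *Hsd11b1-201* were lower in every Cebpa_ASKO library and *Hsd11b1-203* was not, a description with no test. *Hsd11b1-205*, which starts at the far upstream end of the gene (193264075), was at 21.9, 24.9 and 37.4 TPM in controls and at 18.4, 10.5 and 17.0 TPM in Cebpa_ASKO. *Hsd11b1-201*, which starts at 193242629, was at 11.0, 13.5 and 14.5 TPM in controls and at 6.21, 6.40 and 7.75 TPM in Cebpa_ASKO. Neither of these overlapped between the genotypes. *Hsd11b1-203* was at 12.5, 8.87 and 4.74 TPM in controls and at 0.866, 13.9 and 6.53 TPM in Cebpa_ASKO, and was the most abundant of the 3 in Cebpa_ASKO 2. The division of reads among transcripts of a gene is an estimate, so these values are less certain than the sum.

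Around the activation enzyme, 12 genes of steroid supply and removal were listed and 8 could be tested, of which 1 was called higher and 0 lower. At an unadjusted p below 0.05, 2 were higher and 3 lower, and DESeq2, which tested 10 of the list, called 2 higher and 1 lower. The called gene was *Hsd11b2*, which encodes the type 2 enzyme that inactivates corticosterone, the reverse of the type 1 reaction. It was scarce in controls, at 0.958, 1.72 and 0.869 CPM, and was at 8.21, 7.38 and 5.34 CPM in Cebpa_ASKO. Its log2 fold change was 2.56 (SE 0.333, edgeR adjusted p = 0.00835), and it was called under all 16 alternatives. In TPM it was at 0.641, 1.29 and 0.623 in controls and at 5.54, 5.68 and 4.21 in Cebpa_ASKO. The ratio of *Hsd11b1* to *Hsd11b2* TPM was 71.4, 36.6 and 92.0 in controls and 4.61, 5.52 and 7.48 in Cebpa_ASKO. The activating enzyme's mRNA was therefore the more abundant of the pair in each of the 6 libraries, with a smaller margin in every Cebpa_ASKO library. Mammary epithelium markers, summed, were at 666 to 1427 CPM in controls and 1936 to 2038 CPM in Cebpa_ASKO, with 9 of 9 tested above the controls in mean and 0 called by edgeR (8 higher at an unadjusted p below 0.05, 4 called higher by DESeq2). Their part in the *Hsd11b2* values was not tested.

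*Dhrs9*, which encodes a short-chain dehydrogenase acting on retinoids and steroids, had a log2 fold change of 0.96 (edgeR adjusted p = 0.0532), and *Abcb1a*, which encodes an efflux pump, one of -0.57 (adjusted p = 0.112). *H6pd*, named after its values were seen, encodes the enzyme that makes the NADPH used by the *Hsd11b1* product in the endoplasmic reticulum. It was at 140, 192 and 164 CPM in controls and 127, 131 and 129 CPM in Cebpa_ASKO, with a log2 fold change of -0.36 and an edgeR adjusted p of 0.182. The libraries did not overlap, and no alternative called it.

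*Hsd11b1* was also used as a template for genes with a like pattern. Among 5686 other genes whose mean log2 CPM reached 5, those with the highest Pearson correlation of log2 CPM over the 6 libraries were *Fabp5* (r = 0.996), a fatty acid binding protein, *Cpne1* (r = 0.996) and *Nat8l* (r = 0.996), which makes N-acetylaspartate. These values are a description over 6 libraries that share the genotype difference. The log2 fold changes of the 3 genes were -2.36, -0.21 and -0.99, so that a like pattern went with fold changes both larger and smaller than that of *Hsd11b1*.

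The receptor-responsive genes fell into those with lower and those with higher means. *Fkbp5* (chromosome 17, 28399094 to 28517527, minus strand) encodes a co-chaperone that lowers the receptor's affinity for hormone and that the receptor itself induces. It was at 13.2, 22.3 and 13.6 CPM in controls and at 7.26, 10.7 and 13.2 CPM in Cebpa_ASKO. The highest Cebpa_ASKO library lay just under the lowest control in CPM, and in TPM the genotypes overlapped. By edgeR, the log2 fold change was -0.65 (SE 0.287, 95% interval -1.34 to 0.03, adjusted p = 0.273), with an exact permutation p of 0.1. The genes with the highest correlation to *Fkbp5* among 5687 were *Hip1*, *Pigs* and *Gpr107*, each with an r of 0.948 or 0.949.

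*Zbtb16* (chromosome 9, 48654297 to 48836222, minus strand) encodes a zinc finger repressor, also called PLZF, that glucocorticoids induce in many cells. It was at 28.4, 55.4 and 37.9 CPM in controls and at 13.9, 28.7 and 19.4 CPM in Cebpa_ASKO. Its lowest control and highest Cebpa_ASKO library differed by less than 1 CPM and overlapped. The log2 fold change, -0.97, was the most negative of the 9 members (SE 0.328, 95% interval -1.75 to -0.19), but with an edgeR adjusted p of 0.165, while DESeq2 gave 0.0346. The exact permutation p was 0.2. Both *Fkbp5* and *Zbtb16* were highest in Cebpa_fl/fl 2, the library with the highest summed fibroblast and progenitor markers (14697 CPM, beside 8299 and 8494 CPM in the other controls and 10016 to 12573 CPM in Cebpa_ASKO). Without that control the log2 fold changes were -0.37 for *Fkbp5* and -0.69 for *Zbtb16*, both uncalled, and the part of those cells was not tested.

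*Tsc22d3* (chromosome X, 140539528 to 140600659, minus strand) encodes GILZ, the glucocorticoid-induced leucine zipper, an anti-inflammatory protein that also restrains adipocyte formation. It was at 66.7, 62.9 and 40.5 CPM in controls and at 96.0, 125 and 57.9 CPM in Cebpa_ASKO. The third Cebpa_ASKO library lay inside the control range. In the mean, *Tsc22d3* had a log2 fold change of 0.71 (SE 0.307, 95% interval -0.02 to 1.44, edgeR adjusted p = 0.264, exact permutation p = 0.3). *Tsc22d3-201*, a transcript starting at 140543187, made up 75.4% of the gene's TPM in controls and 82.9% in Cebpa_ASKO, on average. Its TPM was 31.2, 32.4 and 22.6 in controls and 53.7, 76.5 and 32.5 in Cebpa_ASKO. *Tsc22d3-203*, which starts at the far upstream end of the gene (140600659), stayed between 2.79 and 4.49 TPM in all 6 libraries. *Tsc22d3-202*, a noncoding transcript with the start farthest downstream of these (140542668), was at 7.71, 7.92 and 2.00 TPM in controls and at 2.84, 6.48 and 5.86 TPM in Cebpa_ASKO. The high first and second Cebpa_ASKO libraries were seen in *Tsc22d3-201* and in neither *Tsc22d3-202* nor *Tsc22d3-203*. The scarce retained-intron transcript *Tsc22d3-205* was at 0.629, 0.719 and 0.265 TPM in controls. In Cebpa_ASKO it was at 0.942, 1.87 and 1.14 TPM, so that every Cebpa_ASKO library, the third included, was above the controls.

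*Sgk1* (chromosome 10, 21882184 to 21999903, plus strand) encodes a serum- and glucocorticoid-regulated kinase. It was at 53.8, 49.98 and 55.4 CPM in controls and at 75.8, 106 and 42.8 CPM in Cebpa_ASKO. The controls were close together, while the Cebpa_ASKO libraries lay on both sides of them. This gave a log2 fold change of 0.50 (SE 0.297, 95% interval -0.21 to 1.21, edgeR adjusted p = 0.426, exact permutation p = 0.4).

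The sequence upstream of the start sites is shown for *Sgk1* because, of the 15 RefSeq promoter windows found for 7 of the members, 1 holds a full palindromic binding sequence of the receptor family, and because the transcripts that start at different distances from it had different levels. Windows are the 250 bases before each start (GRCm38.p6, both strands searched); *Nr3c1* and *Zbtb16* have no entry. The palindrome searched was AGAACA, any 3 bases, then TGTTCT, in capitals in the first line, and 3 of 32851 windows hold it (0.00913%). The first window, chr10:21993640-21993889 on the plus strand, lies before *Sgk1-202*, and the second, chr10:21994416-21994665, before *Sgk1-201*.
Sgk1, upstream of Sgk1-202: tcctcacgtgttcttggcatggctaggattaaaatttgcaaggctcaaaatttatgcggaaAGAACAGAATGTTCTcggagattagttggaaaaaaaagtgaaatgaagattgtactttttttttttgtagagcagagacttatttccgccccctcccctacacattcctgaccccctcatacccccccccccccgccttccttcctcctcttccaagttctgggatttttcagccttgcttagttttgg
Sgk1, upstream of Sgk1-201: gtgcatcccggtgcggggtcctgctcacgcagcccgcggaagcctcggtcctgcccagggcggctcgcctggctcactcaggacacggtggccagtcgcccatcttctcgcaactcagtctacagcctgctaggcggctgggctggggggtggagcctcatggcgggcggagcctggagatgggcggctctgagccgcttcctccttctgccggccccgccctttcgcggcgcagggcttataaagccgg
The palindrome lies 175 to 189 bases before the start of *Sgk1-202* and 951 to 965 bases before that of *Sgk1-201*, whose starts are 776 bases apart. GC content is 44.8% in the first window and 70.4% in the second, against a median of 52.4% over all windows.

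*Sgk1-201* carried most of the gene's level, at 20.985, 24.0 and 24.0 TPM in controls and 34.2, 52.6 and 18.1 TPM in Cebpa_ASKO. *Sgk1-202*, with the palindrome nearest to its start, was at 4.43, 1.77 and 3.43 TPM in controls and 2.07, 3.57 and 3.16 TPM in Cebpa_ASKO. *Sgk1-201* was above all controls in the first and second Cebpa_ASKO libraries and below them in the third, and *Sgk1-202* overlapped between the genotypes. The retained-intron transcript *Sgk1-208* was at 0.408, 2.41 and 2.46 TPM in controls and at 2.49, 7.22 and 4.36 TPM in Cebpa_ASKO, so that it was above the controls in the third Cebpa_ASKO library too. Another retained-intron transcript, *Sgk1-209*, was at 1.51, 0.997 and 0.253 TPM in controls and at 0.398, 9.22 and 1.97 TPM in Cebpa_ASKO. A match of letters is a description and no measure of binding, which was not assayed.

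**Figure D2:**
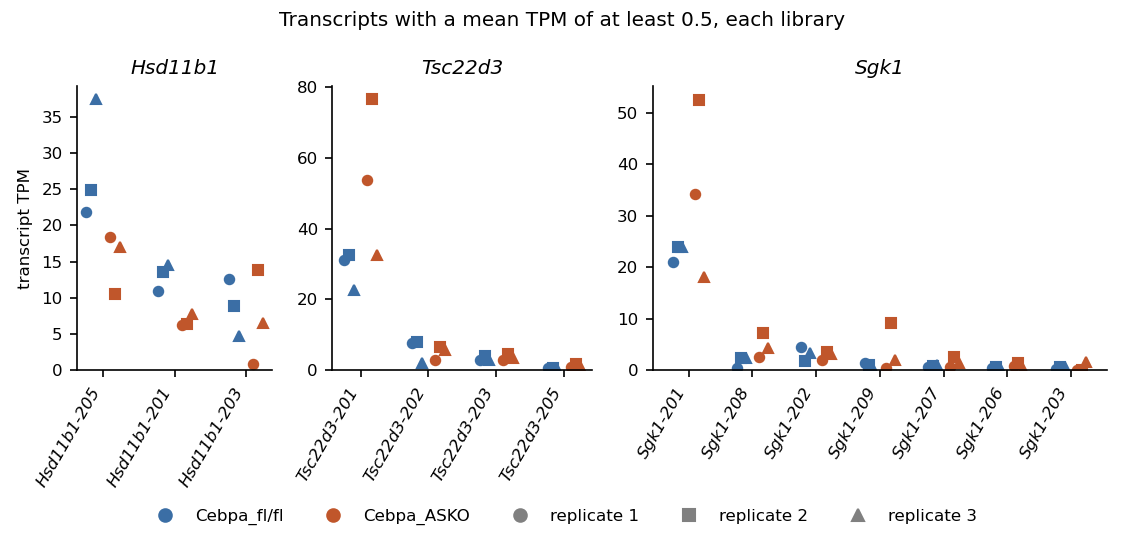
Transcript TPM in each library is plotted for *Hsd11b1*, *Tsc22d3* and *Sgk1*, for transcripts with a mean of at least 0.5 TPM in either genotype (blue Cebpa_fl/fl, orange Cebpa_ASKO, symbol for the replicate number). *Hsd11b1-205* and *Hsd11b1-201* are lower in all Cebpa_ASKO libraries, and 1 transcript each, *Tsc22d3-201* and *Sgk1-201*, holds most of the level of its gene.

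*Per1* (chromosome 11, 69095217 to 69109960, plus strand) encodes a repressor of the circadian clock that glucocorticoids induce directly. It was at 29.8, 22.4 and 35.5 CPM in controls and at 51.5, 53.2 and 23.0 CPM in Cebpa_ASKO. As for *Sgk1* and *Tsc22d3*, the first and second Cebpa_ASKO libraries were above all controls and the third was not. Its log2 fold change was 0.54 (SE 0.333, 95% interval -0.25 to 1.34, edgeR adjusted p = 0.4397, exact permutation p = 0.3). *Per1-201* carried most of this, with a mean of 5.90 TPM in controls and 9.13 TPM in Cebpa_ASKO. Its upstream window is shown because it holds both a C/EBP sequence (TTGCNNAA, found on the minus strand, 24 to 17 bases before the RefSeq start) and an E-box of the clock proteins (CACGTG, 166 to 161 bases before it), here in capitals, at chr11:69098699-69098947 on the plus strand.
Per1, upstream of Per1-201: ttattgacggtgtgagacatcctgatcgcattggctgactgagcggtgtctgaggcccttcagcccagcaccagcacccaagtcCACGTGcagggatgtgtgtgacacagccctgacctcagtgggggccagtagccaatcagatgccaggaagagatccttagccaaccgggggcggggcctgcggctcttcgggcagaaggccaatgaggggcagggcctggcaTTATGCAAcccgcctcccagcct
Of all 32851 windows, 9.56% hold the C/EBP sequence and 6.02% the E-box. Among the 15 member windows, 3 hold the C/EBP sequence (*Nr3c2*, *Sgk1* and *Per1*) and 3 the E-box (*Sgk1*, *Per1* and *Fkbp5*), while the single arm AGAACA is in 4 windows of *Sgk1* and *Tsc22d3* and in 16.1% of all windows. Of the 15 windows, 6 belong to *Sgk1*, and some lie before transcripts at 0 TPM in every library. These are the *Sgk1* window with the C/EBP sequence (before *Sgk1-210* and *Sgk1-213*) and 1 with AGAACA (before *Sgk1-204*).

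*Ddit4* (chromosome 10, 59949669 to 59951834, minus strand) encodes REDD1, an inhibitor of mTORC1 that glucocorticoids and stress induce. It was at 23.5, 23.1 and 24.1 CPM in controls and at 19.6, 28.9 and 21.2 CPM in Cebpa_ASKO. The controls were the closest together among the receptor-responsive genes, and the Cebpa_ASKO libraries lay on both sides of them. With a log2 fold change of -0.021 (95% interval -0.38 to 0.34, edgeR adjusted p = 0.963), its mean was level, and the sign turned with the scaling.

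The third Cebpa_ASKO library therefore weighed on the genes with higher means. Without it the log2 fold change was 0.94 for *Tsc22d3*, 0.83 for *Per1* and 0.76 for *Sgk1*, and none of the 3 was called. That library had the lowest summed muscle markers of the 3 Cebpa_ASKO libraries, and the one with the highest muscle sum, Cebpa_ASKO 2, was also the highest of all 6 libraries for *Tsc22d3*, *Per1*, *Sgk1* and *Ddit4*. Without Cebpa_ASKO 2 the log2 fold change was 0.42 for *Tsc22d3*, 0.33 for *Per1* and 0.14 for *Sgk1*, and the part of muscle RNA in these values was not tested. Leaving out Cebpa_fl/fl 1, the control with lymphocyte RNA, called no other member.

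**Figure D3:**
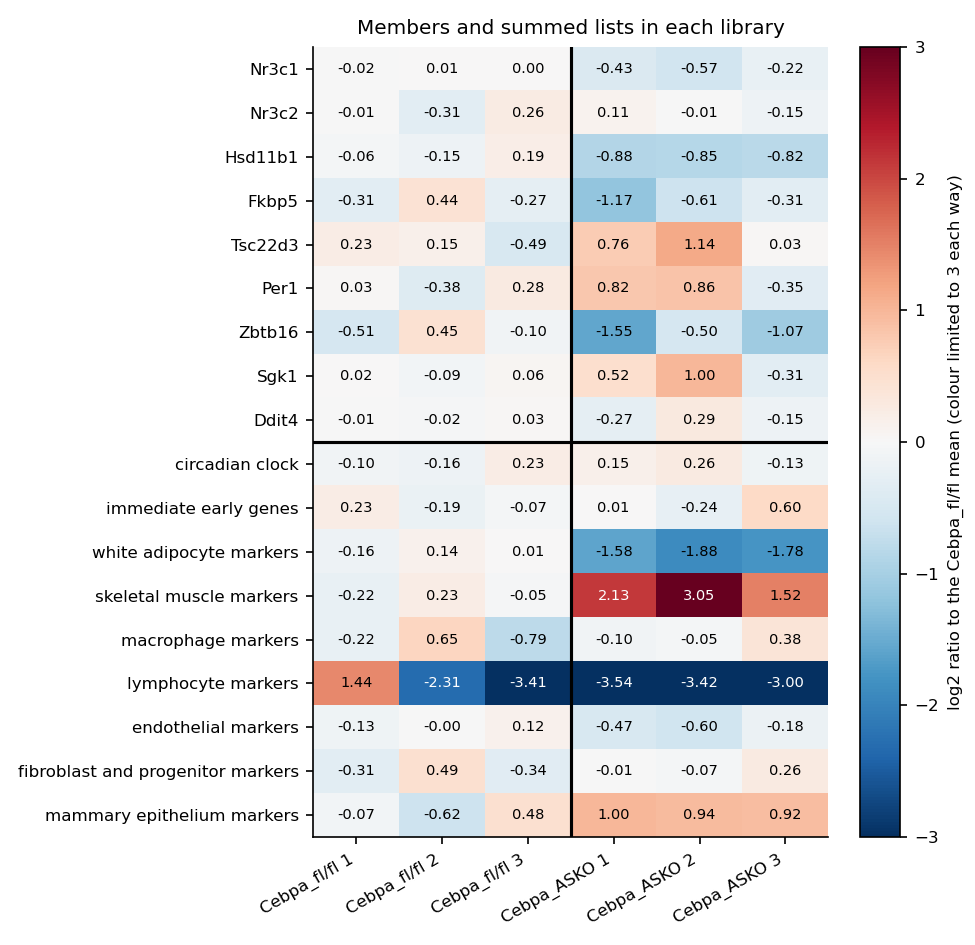
Each cell gives the log2 ratio of a library's CPM to the Cebpa_fl/fl mean, for the 9 genes above the line and for the summed CPM of other lists below it. *Hsd11b1* is between -0.88 and -0.82 in all 3 Cebpa_ASKO libraries, whereas *Tsc22d3*, *Per1* and *Sgk1* are between 0.52 and 1.14 in the first and second and between -0.35 and 0.03 in the third.

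Of the 30 other genes listed as glucocorticoid targets, 28 were tested, with 1 called higher and 2 called lower, a median log2 fold change of 0.11, and 17 above against 11 below 0. At an unadjusted p below 0.05, 6 were higher and 4 lower. DESeq2 called 3 higher (*Cdkn1a*, *Cebpd* and *Trim63*) and 2 lower (*Klf15* and *Pck1*). The log2 fold changes of the tested targets ran from -1.88 to 1.58. *Klf15*, a Krüppel-like factor of amino acid and lipid metabolism induced by the receptor, was at 43.7, 59.7 and 66.1 CPM in controls and 11.9, 16.9 and 17.3 CPM in Cebpa_ASKO, with a log2 fold change of -1.88 (edgeR adjusted p = 0.00435). *Pck1*, the enzyme of glyceroneogenesis in fat, fell from a mean of 2184 to 662 CPM, with a log2 fold change of -1.72 (adjusted p = 0.00918). *Cdkn1a*, the cell cycle inhibitor p21, rose from a mean of 29.8 to 41.9 CPM, with a log2 fold change of 0.50 (adjusted p = 0.0380), and was called in 5 of 16 alternatives. *Klf15* and *Pck1* are also genes of the mature adipocyte, and the adipocyte markers moved with them in the same libraries, whose part was not tested. Skeletal muscle markers were higher in the same Cebpa_ASKO libraries, and their part in the *Trim63* call was not tested.

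The chaperones and coregulators that work with the receptor held few called genes. Of 12 chaperones, 0 were called higher and 1 lower, with a median log2 fold change of 0.17 (3 higher and 1 lower at an unadjusted p below 0.05; DESeq2 called 1 each way). *Bag1*, a co-chaperone of Hsp70 that binds the receptor, fell by 0.44 on the log2 scale (edgeR adjusted p = 0.0373), and was called in 5 of 16 alternatives. *Hsp90ab1* and *Dnajb1*, a constitutive Hsp90 and an Hsp40, had log2 fold changes of 0.37 and 0.39 and were not called. Of 14 coregulators, 0 were called higher and 1 lower, with a median of 0.05 (1 each way at an unadjusted p below 0.05; DESeq2 called 0 higher and 1 lower). *Nrip1*, the corepressor RIP140 of nuclear receptors in fat, was at 92.3, 109 and 111 CPM in controls and 53.0, 53.4 and 51.7 CPM in Cebpa_ASKO, with a log2 fold change of -0.98 (edgeR adjusted p = 0.00282). Adipocyte markers were lower in the same Cebpa_ASKO libraries, and their part in the *Nrip1* values was not tested. *Ncoa3*, a coactivator, had a log2 fold change of 0.25 and was not called.

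**Figure D4:**
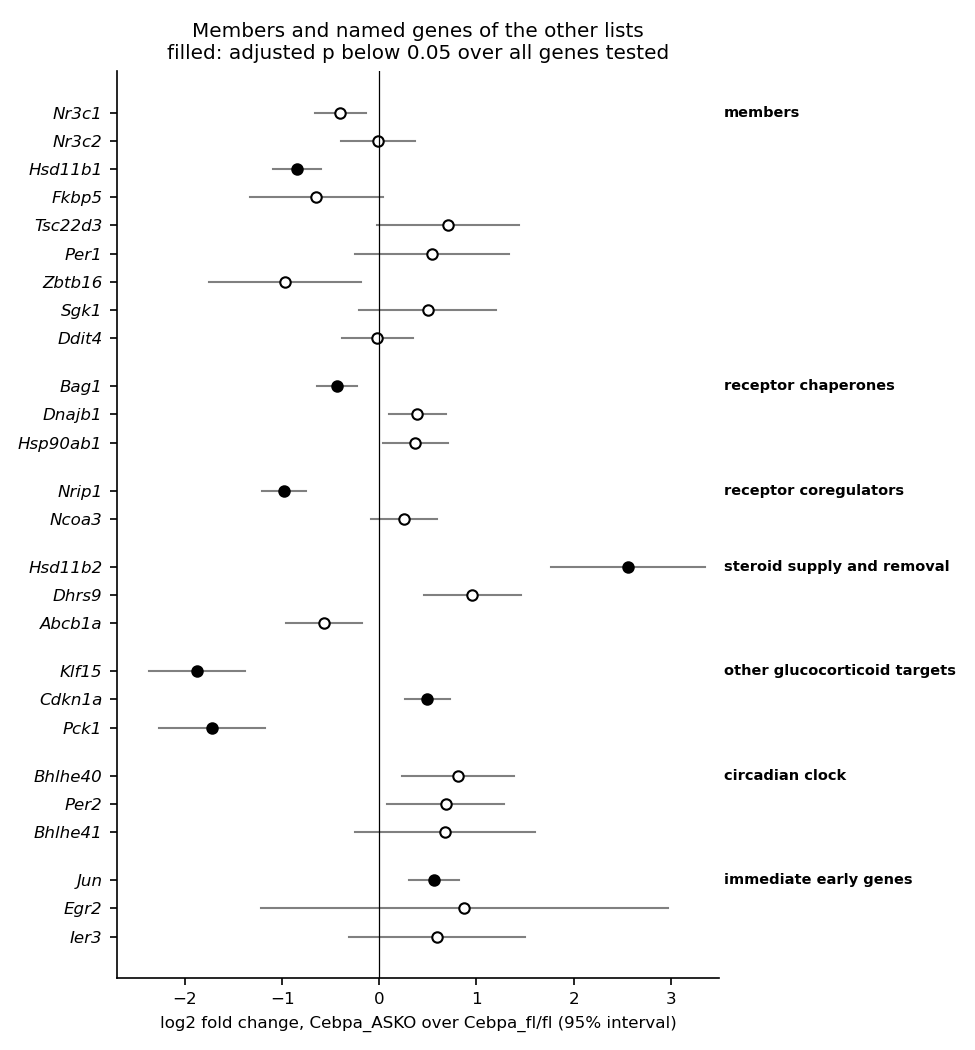
Points give the log2 fold change of Cebpa_ASKO over Cebpa_fl/fl with its 95% interval for the 9 members and for the genes named from the other lists, and filled points passed the edgeR test over all genes. Among the members *Hsd11b1* alone is filled (-0.85), while *Hsd11b2* (2.56) and *Klf15* (-1.88) lie farthest from 0 in the other lists.

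Since *Per1* belongs to the clock and several members respond to handling and stress, these lists were read beside it. Of 18 other clock genes, 0 were called in either direction by edgeR, with 2 higher and 2 lower at an unadjusted p below 0.05. DESeq2 called 1 higher (*Bhlhe40*) and 2 lower (*Npas2* and *Rora*). The list was split, with 10 above and 8 below 0 in log2 fold change and a median of 0.07. The clock genes described next were named for their large fold changes, and each had a higher mean in Cebpa_ASKO. *Per2*, the partner of *Per1*, was at 7.55, 8.24 and 8.77 CPM in controls and at 14.1, 16.9 and 8.48 CPM in Cebpa_ASKO, with a log2 fold change of 0.68. *Bhlhe41*, a clock repressor, was at 59.4, 41.4 and 82.9 CPM in controls and at 109, 134 and 51.3 CPM in Cebpa_ASKO. Both repeated the order of *Per1*, with high first and second Cebpa_ASKO libraries and Cebpa_ASKO 3 in the control range. *Bhlhe40* had a log2 fold change of 0.81 (edgeR adjusted p = 0.128) with no overlap.

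Of 18 immediate early genes, which respond within minutes to stimuli, 1 was called higher and 0 lower (1 and 0 at an unadjusted p below 0.05; DESeq2 called 1 and 0). *Jun* was at 52.2, 65.4 and 56.2 CPM in controls and 88.3, 79.9 and 89.0 CPM in Cebpa_ASKO, with a log2 fold change of 0.57 (edgeR adjusted p = 0.0341), and it was called in 7 of 16 alternatives. *Egr2* (0.88) and *Ier3* (0.59) had higher means, and both were highest in Cebpa_ASKO 3. *Egr2* reached 41.2 CPM there beside 4.06 to 12.9 CPM elsewhere, and its higher mean rested on that library. For *Ier3*, the lowest log2 fold change with a library left out was 0.21. The library with the highest *Egr2* was thus the one with the lowest *Sgk1* of the 6.

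**Figure D5:**
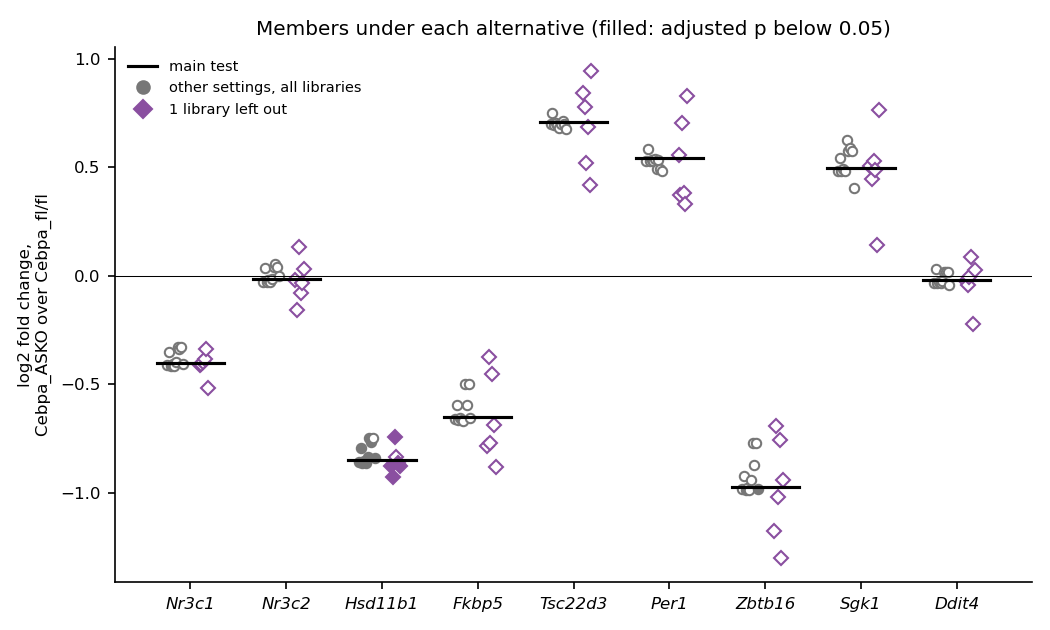
The log2 fold change of each member is plotted under the main test (black line), under 10 other settings with all libraries (gray circles) and with each of the 6 libraries left out (purple diamonds), filled where the adjusted p was below 0.05. *Hsd11b1* is filled in 14 of 16 alternatives and stays between -0.93 and -0.74, and *Nr3c2* and *Ddit4* fall on both sides of 0.

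Markers of other cells were read in the same way. Macrophage markers summed to 1079 to 2928 CPM in controls and 1747 to 2429 CPM in Cebpa_ASKO, with 0 of 10 called by edgeR or DESeq2 and 0 at an unadjusted p below 0.05, as for the 10 fibroblast and progenitor markers. Endothelial cells also express *Tsc22d3* and *Sgk1*, and their markers summed to 455 to 543 CPM in controls and 329 to 442 CPM in Cebpa_ASKO, with no overlap. Of the 10 endothelial markers 9 were below 0 in log2 fold change, 2 were called lower by edgeR and 4 by DESeq2, and 6 were lower at an unadjusted p below 0.05. The endothelial sums moved opposite to the mean of *Tsc22d3* and *Sgk1*, and their part in these values was not tested. No list had a marker at 0 in every library. The 9 lymphocyte markers tested by edgeR were all below 0 (median log2 fold change -3.15), with 0 called and 7 lower at an unadjusted p below 0.05. DESeq2 tested 6 markers of this list and called 3 lower. Without Cebpa_fl/fl 1 the median was -0.69, with 7 of 9 below 0 and 0 called by edgeR.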

How the data were processed

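RNA-seq of iWAT from 3 Cebpa_fl/fl and 3 Cebpa_ASKO mice (labels; all in 1 batch; poly-A selected, paired-end, NextSeq 500) was analyzed. The authors deposited estimated counts per transcript from kallisto 0.44.0 (version from the submitters' processing notes), unnormalized, with effective lengths, and TPM per transcript and per gene symbol. The submitters' notes list the builds GRCm38.p6 and GRCh38.p12, and the transcript annotation is not given in the sources used here. Replicates are separate samples by their labels.

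Transcripts were matched by identifier to GENCODE M21 (GRCm38; 116816 of 118489, or 98.6%), and counts were summed per symbol and rounded. For all 9 members the matched transcripts gave the whole of the gene TPM. kallisto divides reads among similar transcripts, and strand use is not stated. edgeR 4.0.16 (TMM, filterByExpr, quasi-likelihood test) was run in R 4.3.3, with Benjamini-Hochberg adjustment over 16069 genes, of which 840 were called. Standard errors were derived from the test's F statistic. DESeq2 1.42.0, limma 3.58.1 (log2 TPM with a pseudocount of 1 or 0.1) and 16 alternatives in all were used for comparison. Scripts were tested on simulated data. Exact permutation tests went through the 20 possible arrangements of 6 libraries.

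The members and gene lists were chosen with earlier results of these data known. From each functional list every called gene was named, and otherwise the largest fold changes (mean log2 CPM at least 1) until 3 were named; 1 gene so chosen is not reported here. Upstream sequences are RefSeq's.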

Additional observations from a re-analysis of the deposited data

How the results depend on the processing

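Of the 144 values of the 9 members under 16 alternatives, 127 kept their direction and their side of the threshold. The count of members called lower (1) was 3 with DESeq2, 0 with limma on log2(TPM + 1) without a filter, and 0 to 1 with a library left out. Deviations of same-numbered libraries from their group means had correlations of 0.110, -0.0259 and -0.294. With 3 libraries a genotype these values cannot settle whether the libraries were paired. The replicate block called 2 members lower. *Hsd11b1* lost its call with unfiltered limma (-0.75) and without Cebpa_ASKO 1, and ranged from -0.93 to -0.74 with a library left out. *Nr3c1* was called by DESeq2 (-0.41), and *Zbtb16* by DESeq2 (-0.99) and with the replicate block (-0.98). *Nr3c2* turned to 0.035 when scaled by total counts, to 0.043 and 0.055 by limma with pseudocounts of 1 and 0.1 and to 0.043 unfiltered, and ran from -0.16 to 0.13 with a library left out. *Ddit4* turned to 0.033 when scaled by total counts, to 0.019 and 0.018 by limma with these pseudocounts and to 0.019 unfiltered, and ran from -0.22 to 0.087. Scaling by total counts moved the median of all genes to 0.073 from 0.025. *Egr2* ran from -0.81 (without Cebpa_ASKO 3) to 1.34. Of the genes in the 6 other lists, 4 were called lower, and 7 by DESeq2 and 1 by unfiltered limma. There, 3 were called higher, and 8 by DESeq2, 1 by limma with a pseudocount of 0.1, 1 by unfiltered limma, 1 with the replicate block, and 1 to 4 with a library left out (1 without Cebpa_fl/fl 1, Cebpa_ASKO 1 or Cebpa_ASKO 2). The cause was not tested. With 3 libraries a genotype, the 95% intervals of *Tsc22d3*, *Per1* and *Sgk1* reach from below 0 to above 1 on the log2 scale, and these libraries cannot tell no change from an increase of that size.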
